A study of Mus musculus with 6 samples.

Results

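Arterial-type endothelial nuclei were examined in single-nucleus RNA sequencing of the mouse left ventricle. They were defined by the unique molecular identifiers (UMIs, each a captured RNA molecule) of 5 genes, Adam23, Nr5a2, Alox12, Cxcl12 and Sox17. A nucleus was taken as endothelial when Flt1, Pecam1, Cdh5 and Ptprb together had at least 3 UMIs. It was left out when markers of endocardium, lymphatic vessels, or fibroblasts and pericytes had more than 1 UMI, or when Ttn, Ryr2 and Myh6 reached 1% of its UMIs. It was called arterial-type when the 5 genes had at least 2 UMIs and outnumbered both the UMIs of Car4, Kit, Gabrb2, Ablim3 and Cyp4b1 and those of Vegfc, Alk, Kirrel3, Col13a1 and Ptprr. By this rule 1223 of 13254 endothelial nuclei were arterial-type (9.23%), which was 2.52% of the 48438 nuclei that passed quality filters. One library, R403Q-EMPA replicate 1, held 637 of them, and without it 586 of 10114 endothelial nuclei were arterial-type (5.79%), or 1.46% of nuclei kept. The same rule with the other gene groups on top gave 5889 Car4 nuclei, a capillary type, and 4168 Vegfc Alk nuclei, and these served as comparators.

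The study compared male mice carrying the R403Q mutation of the cardiac myosin heavy chain, a model of hypertrophic cardiomyopathy, with wild-type littermates. The genotype label spells the allele as Myh6+/R404Q, so the mutant gene is one of cardiomyocytes. Wild-type mice on control diet (WT-CD), R403Q mice on control diet (R403Q-CD) and R403Q mice on that diet with empagliflozin (R403Q-EMPA) gave 2 libraries each. The control diet was a lard diet free of sucrose, and empagliflozin, an inhibitor of the sodium-glucose cotransporter SGLT2, was added at 0.15 mg per g of diet, about 15 mg/kg body weight. The mice were 9 to 10 weeks old when the diets started, and nuclei were isolated from fresh frozen ventricle of mice 12 weeks old. The labels also state a feeding time of 16 weeks, which does not go with these ages. The paper places its RNA sequencing of hearts of this age after 2 weeks of treatment, which does. It gives no separate treatment length for the single nuclei, so the length behind these nuclei is not certain. The labels do not say whether a library is 1 mouse, so the spread between the 2 libraries of a group may be partly technical. The gene tests within arterial-type nuclei pooled this spread over groups and moderated it with that of other genes (3 residual and 13.6 prior degrees of freedom). No label names a batch.

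Arterial endothelium lines the vessels that carry blood under pressure, and it is set apart from capillary and venous endothelium by Notch signalling and by transcription factors of the SoxF group such as Sox17. Its ligands and receptors include the Notch ligands Dll4 and Jag1 and the membrane ligand Efnb2, and its cells are coupled by the gap junction proteins encoded by Gja4 and Gja5. Cxcl12 is a chemokine that arterial endothelium of the heart makes, and venous identity rests on the nuclear receptor encoded by Nr2f2.

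Each library held 31787308 to 45397128 UMIs, and arterial-type nuclei had median depths of 2142 to 3258.5 UMIs, against 2075.5 to 3362 for Car4 nuclei. R403Q-EMPA replicate 1 stood apart, since it held 637 arterial-type nuclei and 52.1% of all of them, while the other 5 libraries held 99 to 138. Summed over these nuclei, the depth was 2063405 UMIs in that library and 220790 to 470578 in the others. Pooled shares and sums and counts of genes called are given with and without it. A total of 538 barcodes occurred in more than 1 library, and no arterial-type barcode did. Scrublet predicted 31 of the arterial-type nuclei (2.53%) as doublets, against 5.02% of all nuclei kept. It predicted 10 of 637 (1.57%) in R403Q-EMPA replicate 1, and outside that library it predicted 21 of 586 (3.58%) against 5.30%. In WT-CD replicate 1 the share was higher in arterial-type nuclei, at 7.69% against 6.45% of nuclei kept.

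The label was checked first. Cxcl12 UMIs were in 83.8% to 94.98% of the arterial-type nuclei of a library, Sox17 UMIs in 26.9% to 53.4%, Adam23 in 10.8% to 36.4%, Alox12 in 9.23% to 28.3% and Nr5a2 in 4.04% to 19.0%. Cxcl12 UMIs were also in 32.9% to 54.5% of Car4 nuclei, so these UMIs were not limited to arterial-type nuclei. In 332 of the 1223 nuclei (27.1%) every UMI of the 5 genes was Cxcl12, and in 192 of 586 (32.8%) without R403Q-EMPA replicate 1. This share was 59.2% and 35.6% for WT-CD, 16.9% and 20.3% for R403Q-CD, and 22.0% and 31.3% for R403Q-EMPA, so it was highest in WT-CD replicate 1. The 5 genes chose the nuclei, so their levels there are a description only, with a mean over 6 libraries of 1560 CPM (UMIs of a gene scaled to the depth of these nuclei in its library) for Cxcl12, 271 for Sox17 (an arterial transcription factor), 196 for Adam23, 122 for Alox12 (an arachidonate lipoxygenase) and 89.6 for Nr5a2 (a nuclear receptor).

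Independent arterial genes were then read in the summed UMIs of each library. Of 18 listed arterial genes that the rule did not use, 12 were higher in arterial-type than in Car4 nuclei in 6 of 6 libraries, 1 (Notch4) was lower in 6 of 6, and Dll4, Nrp1, Sox7, Notch1 and Unc5b were mixed. Over all 9418 genes measured, 5.75% were higher and 6.63% lower in 6 of 6 libraries. Since the nuclei were sorted by their own expression, these counts describe the nuclei and were not tested. The median log2 ratio of the list was 1.00, against -0.02 over all genes. Against Vegfc Alk nuclei 10 of the 18 were higher and 0 lower in 6 of 6 libraries, where 7.98% and 10.2% of all genes were.

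Among ligands, Jag1 had 77.9 and 113 CPM for WT-CD, 84.5 and 123 for R403Q-CD, and 85.3 and 131 for R403Q-EMPA. Its mean was 103 ± 22.8 CPM (SD, n = 6 libraries), against 22.7 ± 3.58 in Car4 nuclei. Efnb2 averaged 462 ± 67.8 CPM, against 303 in Car4 and 109 in Vegfc Alk nuclei, and the secreted semaphorin Sema3g averaged 85.5 ± 15.0, against 17.8 and 33.1. Dll4, the other Notch ligand, went against the label in the comparison with Car4 nuclei, at 72.2 ± 19.8 against 93.3 ± 8.77 CPM, although it was above the 27.0 CPM of Vegfc Alk nuclei. Hey1, a transcriptional target of Notch, averaged 42.1 ± 13.5 CPM, against 13.9 and 6.88. Of the receptors, Notch1 was a little above Car4 nuclei on average, at 197 against 179 CPM, but mixed between libraries. Notch4 was lower in 6 of 6 libraries, at 162 against 194.

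The gap junction genes were low and variable. Gja5 had 24.9 and 23.9 CPM for WT-CD, 39.3 and 53.1 for R403Q-CD, and 30.0 and 90.6 for R403Q-EMPA, against a mean of 8.61 in Car4 nuclei. Gja4 averaged 12.9 ± 7.20 CPM, against 1.38. Bmx, a tyrosine kinase of arterial endothelium, averaged 63.6 ± 28.2 CPM, against 7.79 in Car4 nuclei, but Vegfc Alk nuclei had 55.2. Fbln5, an elastic fibre protein, averaged 87.1 ± 30.3 against 17.0 and 47.2 CPM. Mecom, a transcription factor of arterial endothelium, was near its level elsewhere, at 3119 ± 400 against 2729 and 2584 CPM.

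**Figure D1:**
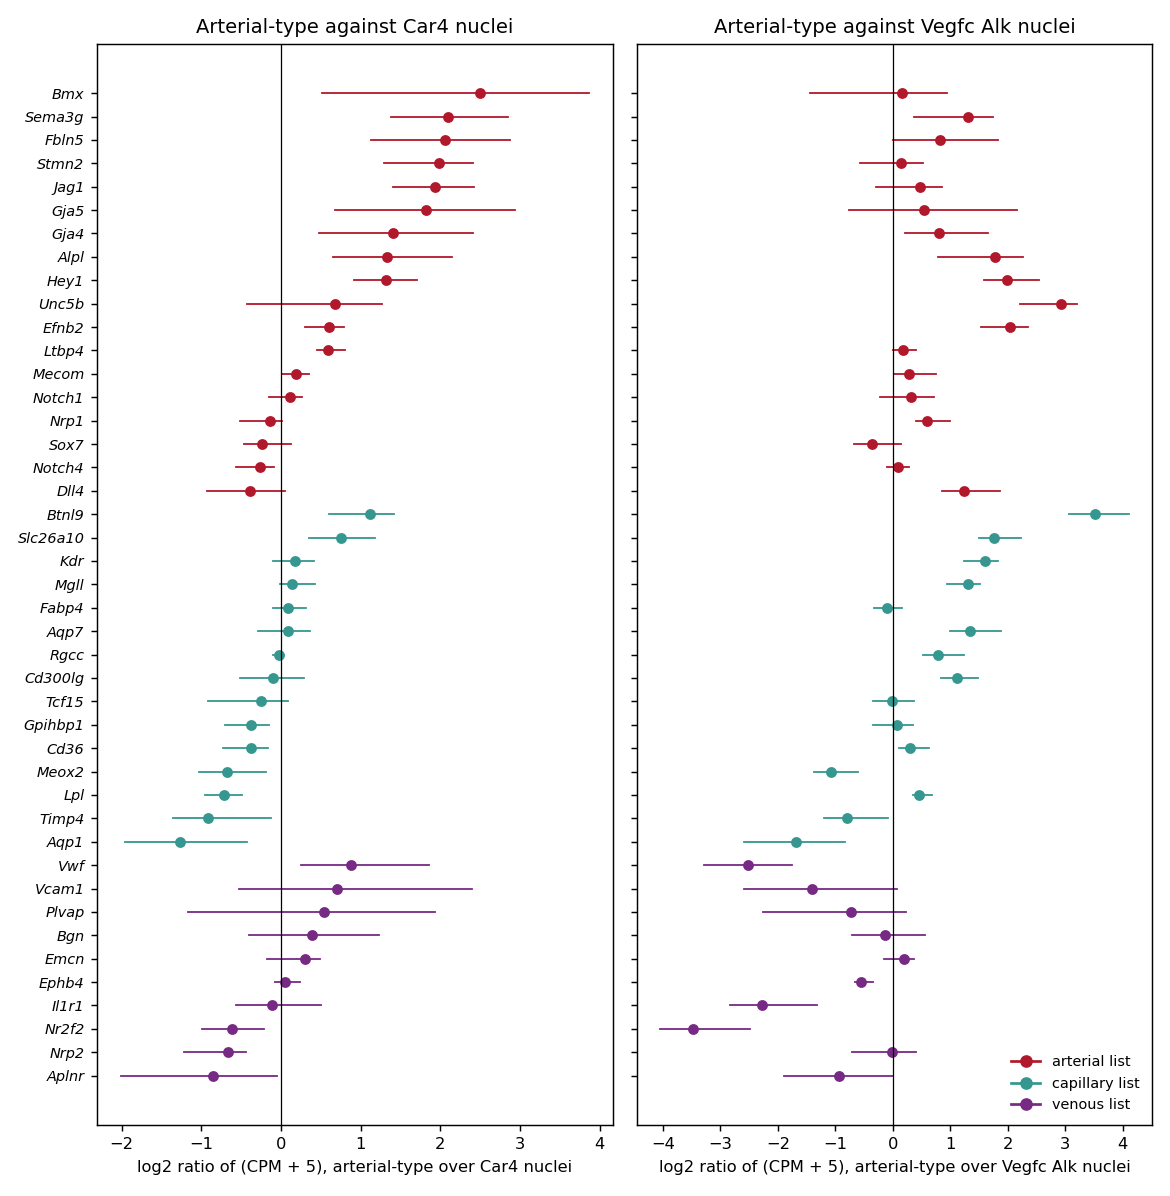
Log2 ratio of CPM (plus 5) in arterial-type nuclei over Car4 nuclei (left) and over Vegfc Alk nuclei (right) for the measured genes of the arterial, capillary and venous lists. Points are means over 6 libraries and lines run from the lowest to the highest library. Most arterial genes lie right of 0 in the left panel, Aqp1, Timp4 and Lpl lie left of it, and Nr2f2 and Vwf lie far left of 0 in the right panel.

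Capillary genes were partly kept. Of 15 capillary genes measured, 6 were lower than in Car4 nuclei in 6 of 6 libraries (Aqp1, Cd36, Gpihbp1, Lpl, Meox2 and Timp4) and 2 were higher (Btnl9 and Slc26a10). Lpl, which hydrolyses the triglycerides of lipoproteins, averaged 809 ± 134 CPM, against 1332 ± 197 in Car4 nuclei, and Cd36, a fatty acid carrier, 1985 ± 298 against 2577 ± 304. The water channel gene Aqp1 averaged 295 ± 167 CPM against 643 ± 194. Btnl9 was higher, at 751 ± 225 against 336 ± 87.9 CPM, and only 60.4 in Vegfc Alk nuclei. Of 18 genes of fatty acid uptake and storage measured, 0 were higher and 5 lower than in Car4 nuclei.

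Venous genes separated the arterial-type nuclei from the Vegfc Alk nuclei. Nr2f2 averaged 22.5 ± 12.1 CPM in arterial-type nuclei and 284 in Vegfc Alk nuclei, Vwf (von Willebrand factor) 58.9 ± 17.4 and 354, and Il1r1, an interleukin 1 receptor, 60.7 ± 21.4 and 305. Of 10 venous genes measured, 5 were lower and 0 higher than in Vegfc Alk nuclei in 6 of 6 libraries. Against Car4 nuclei 1 was higher (Vwf) and 3 lower (Aplnr, Nr2f2 and Nrp2).

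Of the other gene groups, elastic fibre and matrix genes leaned to one side against Car4 nuclei, with 7 of 16 measured higher and 0 lower in 6 of 6 libraries. Over all genes 5.75% were higher and 6.63% lower. Against Vegfc Alk nuclei the lean was absent, with 2 of the 16 higher, 3 lower and a median log2 ratio of 0.01. Eln, which encodes elastin, averaged 307 ± 137 CPM against 109 ± 35.8 in Car4 nuclei, though Vegfc Alk nuclei had 710. Fn1, fibronectin, averaged 146 ± 31.1 against 27.2 ± 15.8 CPM, and Col8a1, a short-chain collagen, 415 ± 99.5 against 94.1 ± 30.7. Of 25 genes of BMP and TGF-beta signalling, 6 were higher and 3 lower than in Vegfc Alk nuclei. Against Car4 nuclei, the comparator of the next values, 9 were higher and 4 lower. Among the ligands Tgfb2 averaged 80.7 ± 45.1 against 12.0 ± 5.15 CPM while Bmp6 was lower, at 729 against 1148. Among the inhibitors Smad6 averaged 316 ± 112 against 104 ± 50.7 and Smad7 361 ± 67.7 against 206 ± 50.7.

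Vasoactive genes were split. Edn1, the vasoconstrictor peptide endothelin 1, averaged 63.9 ± 30.4 CPM in arterial-type nuclei against 12.2 ± 11.1 in Car4 nuclei, and it was higher in 6 of 6 libraries against both comparators. Nos3, endothelial nitric oxide synthase, averaged 202 ± 55.4 against 213 ± 14.4. Of 18 basement membrane genes measured, 11 were higher and 0 lower than in Vegfc Alk nuclei. Against Car4 nuclei 5 were higher and 1 lower, with Lama3 at 277 against 135 CPM and Nid2 at 112 against 84.0. Outside the lists the highest ratios over Car4 nuclei were those of Chrm3, a muscarinic acetylcholine receptor, at 127 ± 58.2 against 7.89 ± 4.52 CPM, and of Nebl, an actin-binding protein of the nebulin family, at 780 ± 335 against 86.8 ± 37.3. At the other end Tll1, a metalloprotease, averaged 7.46 ± 5.53 against 57.9 ± 17.8 CPM, and Stxbp6, a syntaxin-binding protein, 224 ± 110 against 669 ± 110.

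Arterial genes were compared between the members that had a marker besides Cxcl12 and those that did not. In UMIs pooled over libraries, 15 of the 18 arterial genes were higher in the 891 members with another marker than in the 332 with Cxcl12 alone. Sema3g had 104 CPM in the former, 21.2 in the latter and 19.1 in Car4 nuclei. Bmx had 62.4, 14.5 and 8.40 CPM. Jag1 had 111 and 43.6 CPM, against 23.4 in Car4 nuclei. Both kinds of member were higher than Car4 nuclei in 14 of the 18 genes. Without R403Q-EMPA replicate 1, which held 497 of the 891 and 140 of the 332, the members with another marker were higher than those with Cxcl12 alone in 16 of 18 genes, and the counts above Car4 nuclei were 14 and 11. Sema3g then had 114, 16.5 and 16.7 CPM, Bmx 90.3, 14.5 and 4.43, and Jag1 135, 35.1 and 22.0. Summed over the arterial list, members with another marker were the higher in 5 of 6 libraries, and in WT-CD replicate 2 they had 7741 CPM against 7893 with Cxcl12 alone. Mecom and Nrp1, genes near their level in Car4 nuclei, made up most of this sum. They had 3007 and 2003 of 7296 CPM in members with another marker, and 2781 and 2076 of 6245 CPM in Car4 nuclei. The sum is thus a coarse measure of arterial genes. At the threshold of the rule, the 156 members with exactly 2 marker UMIs had an arterial list sum of 7280 CPM. The 127 nuclei just outside, with 1 marker UMI, had 5033 CPM. The 319 nuclei whose arterial UMIs only equalled another group had 7060 CPM. Over all members the sum was 7124 CPM, against 6245 in Car4 nuclei. Without R403Q-EMPA replicate 1 these sums were 7526 CPM for members with exactly 2 marker UMIs, 5137 and 7313 for the nuclei just outside, 7310 for all members and 6198 for Car4 nuclei.

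Markers of other cells were present, with those of cardiomyocytes the most abundant of the lists of non-endothelial cells. Of 10 smooth muscle genes, Actg2, Cnn1 and Lmod1 were at 0 UMIs in arterial-type nuclei, and the list summed to 96.6 to 145 CPM across libraries. The 9 fibroblast genes, none at 0, summed to 1770 and 635 CPM for WT-CD, 426 and 676 for R403Q-CD, and 817 and 833 for R403Q-EMPA, so WT-CD replicate 1 was the highest. The 10 cardiomyocyte genes, none at 0, summed to 1595 to 2994 CPM with a mean of 2597 ± 529, beside 2238 ± 363 for the 5 arterial markers that chose the nuclei, and averaged 2726 ± 451 in Car4 nuclei. Of 6 adipocyte genes Cidec, Lep and Plin1 were at 0, and the list summed to 566 to 1033 CPM, against 612 to 884 in Car4 nuclei.

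The first comparison asked whether the share of arterial-type nuclei differed between groups. They made up 7.17% and 4.18% of endothelial nuclei for WT-CD, 5.04% and 6.54% for R403Q-CD, and 20.3% and 6.90% for R403Q-EMPA. The 95% Wilson interval was 18.9% to 21.7% in R403Q-EMPA replicate 1 and reached at most 8.45% in the other 5 libraries, so only that library stood above the rest. These intervals cover counting error alone. In its Car4 nuclei, Sox17 UMIs were in 21.1% and Cxcl12 UMIs in 54.5%. The other libraries had 8.44% to 14.5% and 32.9% to 44.8% there. Adam23 was within their range, at 7.49% against 1.56% to 9.62%. How far marker levels across the endothelial nuclei of that library raised its share was not tested. That library also had the highest share of endothelial nuclei, 38.1% of nuclei kept against 17.8% to 30.1% in the others. Its share of Car4 nuclei was 34.4% and of Vegfc Alk nuclei 26.6% of endothelial nuclei, against 35.3% to 55.5% and 27.4% to 40.1% elsewhere.

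By group the share averaged 5.68% ± 2.11 among WT-CD libraries, 5.79% ± 1.06 among those of R403Q-CD and 13.6% ± 9.46 among those of R403Q-EMPA (SD, n = 2 each). R403Q-CD exceeded WT-CD by 0.115 percentage points (exact permutation test, two-sided, p = 1). R403Q-EMPA exceeded R403Q-CD by 7.80 points (exact permutation p = 0.333, the smallest that 2 against 2 libraries allow), and by 1.11 points without R403Q-EMPA replicate 1. It exceeded WT-CD by 7.92 points (exact permutation p = 0.667), and by 1.23 without that library. After each endothelial nucleus was thinned to 1000 UMIs, which left out 114 shallower nuclei, the shares were 6.37%, 3.20%, 4.46%, 4.92%, 14.8% and 4.65% in the same order. Without R403Q-EMPA replicate 1 the thinned differences turned to -0.04 and -0.13 points.

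When a marker besides Cxcl12 was required, a choice made after seeing the data, the shares were 2.92% and 2.69% for WT-CD, 4.18% and 5.22% for R403Q-CD, and 15.8% and 4.74% for R403Q-EMPA. Both R403Q-CD libraries were then above both WT-CD libraries, by 1.89 points on average (exact permutation p = 0.333, the smallest possible). The marker genes define this share, so the test cannot tell more such nuclei from more marker UMIs in a nucleus. Median depth of endothelial nuclei was 2383 and 3115 UMIs for WT-CD and 2802 and 3461 for R403Q-CD, and this variant was not thinned. The share of smooth muscle nuclei was not highest in the library with most arterial-type nuclei, at 1.78% of nuclei kept there and 1.84% to 4.48% elsewhere.

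**Figure D2:**
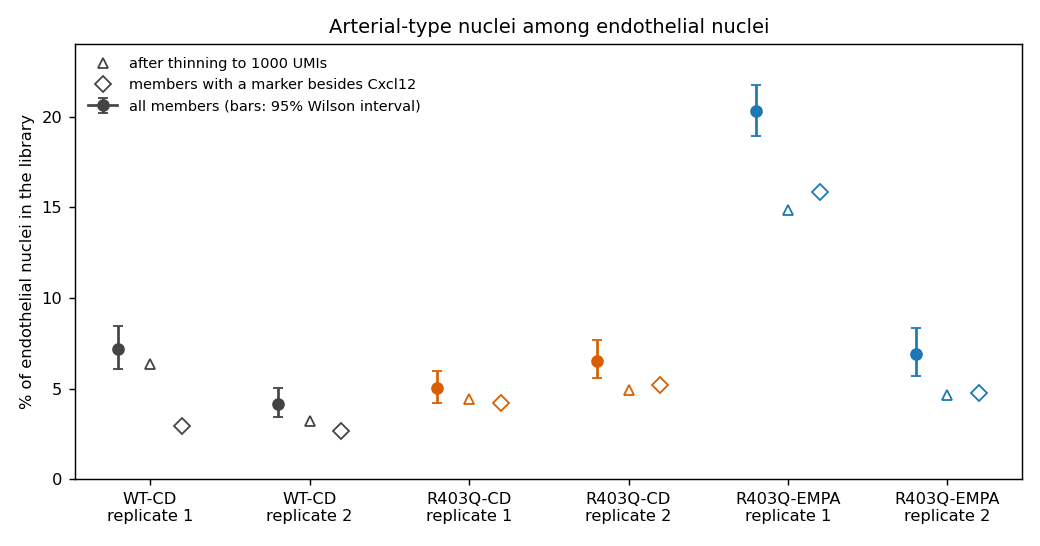
Arterial-type nuclei as a percentage of the endothelial nuclei of each library, for all members with 95% Wilson intervals (filled circles), after thinning to 1000 UMIs (triangles) and for members with a marker besides Cxcl12 (diamonds). R403Q-EMPA replicate 1 lies at 20.3%, and the other 5 libraries lie between 4.18% and 7.17%.

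Gene expression between groups was then tested on the UMIs summed over the arterial-type nuclei of each library, with edgeR's quasi-likelihood test over 6269 genes and Benjamini-Hochberg adjustment. Levels from here are TMM-scaled CPM, and calls were made where the adjusted p was below 0.05. R403Q-CD against WT-CD called 0 genes (0%), although 284 genes had an unadjusted p under 0.05 (4.53%, of which 2.14% higher and 2.39% lower). DESeq2 also called 0, with 101 at an unadjusted p under 0.05. The count moved when single libraries were left out, to 22 without WT-CD replicate 2, 13 without R403Q-CD replicate 2, 9 without R403Q-CD replicate 1, 4 without R403Q-EMPA replicate 1 and 3 without R403Q-EMPA replicate 2.

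In this comparison the 10 genes of smallest p are given as values. Nppa, the gene of atrial natriuretic peptide and a marker of stressed cardiomyocytes, had 6.48 and 7.48 CPM in WT-CD and 88.8 and 71.5 in R403Q-CD. Its groups were far apart but its adjusted p was 0.553, and 0.00463 without R403Q-EMPA replicate 1 (edgeR). Vcam1, a leukocyte adhesion molecule, had 81.0 and 105 against 16.4 and 23.1 CPM (edgeR adjusted p = 0.240). Car8 had 444 and 288 against 158 and 145 CPM, Pcsk6, a proprotein convertase, 230 and 127 against 59.2 and 62.2, and Eda, a ligand of the tumour necrosis factor family, 217 and 131 against 29.6 and 82.98. The groups did not overlap for any of these 5 genes, as for 16.7% (higher) and 15.5% (lower) of all genes tested. Tenm3 had 55.1 and 131 against 6.58 and 11.5 CPM, with 20 of its 35 UMIs in WT-CD replicate 2 from 1 nucleus. Adam23, a cell adhesion protein, was also among the 10, but it is one of the genes that chose the nuclei, so its 90.8 and 194 against 375 and 318 CPM are a description.

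The last 3 of the 10 rested on few UMIs. Mki67, a proliferation marker, had 15 and 22 UMIs in WT-CD and 0 and 1 in R403Q-CD, a ratio of 0.021 (95% counting interval 0.00051 to 0.123), and these came from 2 and 1 nuclei in the WT-CD libraries. Tomm40, of the mitochondrial import pore, had 10 and 11 against 1 and 1 UMIs, a ratio of 0.073 (0.0083 to 0.298). Hmcn2 had 14 and 13 against 1 and 1 UMIs, a ratio of 0.057 (0.0065 to 0.226). Hmcn2 had 10 of its 14 UMIs in WT-CD replicate 1 from 1 nucleus. For Mki67 and Hmcn2 single nuclei thus supplied much of the level in WT-CD.

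The arterial genes did not pass the test with the mutation. Of 17 listed arterial genes tested, 0 were called, and their median log2 fold change was 0.26, against 0.01 over all genes. Unc5b, a netrin receptor, had 64.8 and 157 CPM in WT-CD and 266 and 196 in R403Q-CD. Hey1 had 25.9 and 29.9 against 55.9 and 48.4 CPM. Efnb2 had 344 and 561 against 543 and 546 CPM. WT-CD replicate 1, where Cxcl12 alone chose most members, was the lowest of the 4 libraries in each of these 3 genes. Of 6 fibroblast genes tested, 5 had an unadjusted p under 0.05 and a lower level in R403Q-CD, with a median log2 fold change of -1.25. The part of fibroblast RNA in the lower genes was not tested.

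R403Q-EMPA against R403Q-CD called 11 genes (0.175%), all higher with empagliflozin, and 396 genes had an unadjusted p under 0.05 (6.32%, of which 3.21% higher and 3.11% lower). Cytosolic heat shock chaperones, proteins that fold newly made or damaged proteins, made up most of them. The chaperone list also holds the transcription factor Hsf1 and the mitochondrial chaperones Hspd1 and Hspe1. Of its 17 genes tested, 7 were called higher and 0 lower. The median log2 fold change of the 17 was 1.503, against -0.00087 over all genes. In 16 of the 17 both treated libraries were above both R403Q-CD libraries, and in 1 below, as in 18.9% and 18.6% of all genes tested. The list was chosen with earlier results of these data known, so its counts are a description.

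Hsph1, a heat shock protein of the HSP110 group, had 9.73 and 3.74 CPM for WT-CD, 9.86 and 9.22 for R403Q-CD, and 185 and 165 for R403Q-EMPA. Both treated libraries were far above the other 4, which held 1 to 4 UMIs each. The log2 fold change against R403Q-CD was 4.19 ± 0.41 (SE, edgeR adjusted p = 0.000101). Without R403Q-EMPA replicate 1 it was 4.05 (edgeR adjusted p = 0.00286).

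The other called chaperones had lower fold changes. Hspa4l, also of the HSP110 group, had 29.2 and 26.2 CPM for WT-CD, 32.9 and 41.5 for R403Q-CD, and 142 and 184 for R403Q-EMPA, a log2 fold change of 2.06 ± 0.33 against R403Q-CD (SE, edgeR adjusted p = 0.0152). Hspb1, a small heat shock protein, had 75.6 and 39.2 CPM for R403Q-CD against 177 and 213 with empagliflozin (1.78 ± 0.32, edgeR adjusted p = 0.0269). No treated library overlapped with an untreated one in either gene.

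The chaperone Hsp90 has an inducible form, Hsp90aa1, and a constitutive one, Hsp90ab1, whose sequences are alike enough that reads could be shared. Hsp90aa1 had 59.2 and 62.2 CPM for R403Q-CD against 161 and 252 with empagliflozin (log2 fold change 1.67 ± 0.31). Hsp90ab1 had 204 and 260 against 591 and 757 CPM (1.503 ± 0.252). Their treated libraries lay above all 4 others. Dnaja1, a cochaperone of Hsp70, had 250 and 166 against 545 and 665 CPM (1.54 ± 0.27), and Hspa8, the constitutive Hsp70, 164 and 138 against 344 and 446 (1.36 ± 0.25). The 4 adjusted p-values were 0.0175 to 0.0269 (edgeR). Of the 10 genes of the list that were not called, Stip1 (Hsp70-Hsp90 organising protein) had 46.0 and 27.7 against 93.6 and 131 CPM. Hsf1, the heat shock transcription factor, had 32.9 and 53.0 against 30.7 and 9.70.

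The promoters of called chaperones are shown because heat shock factor binds repeats of GAA in alternating orientation. RefSeq promoters of GRCm38.p6 held 15 of the 19 listed chaperones, and the 250 bases before each start were searched on both strands for GAANNTTC or TTCNNGAA. The 2 letter strings can overlap. This search was chosen after the expression values were seen. One or both were in 8 of the 15 genes (53.3%), and in 12.8% of all windows and 14.5% of the 27025 genes of the table. Of the called chaperones, Hsph1, Hspb1 and Dnaja1 held a match in at least 1 window and Hspa4l did not. Hsp90aa1, Hsp90ab1 and Hspa8 were not in the table. The 4 genes present had 7 windows, 4 of them with a match, and only windows with a match are shown. A longer string of 3 alternating blocks was in 0 of these 4 genes. It was in 2 of the 15 listed genes (Hspd1 and Hspe1, neither called) and in 0.514% of all genes. The matches are in capitals in Hsph1 (chr5:149636316-149636565, minus strand), Hspb1 (chr5:135887669-135887918, plus strand) and Dnaja1 (chr4:40722218-40722467, plus strand), each read 5′ to 3′ towards the start site:
Hsph1: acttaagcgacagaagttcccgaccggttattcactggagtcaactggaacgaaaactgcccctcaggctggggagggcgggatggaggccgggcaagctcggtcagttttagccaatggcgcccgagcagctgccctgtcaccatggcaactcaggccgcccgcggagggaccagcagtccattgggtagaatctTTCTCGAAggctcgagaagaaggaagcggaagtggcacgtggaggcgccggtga
Hspb1: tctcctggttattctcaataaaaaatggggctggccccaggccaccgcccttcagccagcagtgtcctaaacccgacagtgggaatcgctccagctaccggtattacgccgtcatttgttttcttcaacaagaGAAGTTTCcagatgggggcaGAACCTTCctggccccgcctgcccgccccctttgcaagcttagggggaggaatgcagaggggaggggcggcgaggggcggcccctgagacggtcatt
Dnaja1: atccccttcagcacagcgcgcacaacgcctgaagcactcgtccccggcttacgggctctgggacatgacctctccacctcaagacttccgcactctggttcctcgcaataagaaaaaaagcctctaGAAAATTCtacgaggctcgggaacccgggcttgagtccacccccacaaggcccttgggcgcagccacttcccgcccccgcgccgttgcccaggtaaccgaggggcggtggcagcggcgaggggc
Hspb1 holds 2 matches and the other 2 sequences hold 1 each. A match is a string of letters and says nothing on its own of binding.

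The arterial genes were read in the same table. Of the 18 listed, 15 were present, and TGGGAA, the core bound by the Notch effector RBPJ, was in 2 of them (Bmx and Fbln5), against 24.1% of all genes. ACAAT, a core of SOX factors, was in 4 (Bmx, Gja4, Jag1 and Notch4), against 30.9% of all genes. CCGGAA, an ETS factor core, was in 1 (Unc5b), against 13.6%. Both strands were searched.

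Of the called genes outside the chaperone list, P4ha1, a subunit of the prolyl hydroxylase that matures collagen and a gene raised in hypoxia, had 117 and 105 CPM for WT-CD, 158 and 164 for R403Q-CD, and 498 and 553 for R403Q-EMPA. Its log2 fold change was 1.69 ± 0.22 (SE, edgeR adjusted p = 0.00191), and the treated libraries lay well apart from the other 4. Ahsa2, related to the Hsp90 activator Ahsa1, had 62.5 and 39.2 against 152 and 199 CPM (1.77 ± 0.31, edgeR adjusted p = 0.0238). P4ha1 was the 1 gene called of 11 hypoxia genes tested, and Epas1, which encodes an oxygen-regulated transcription factor, had 1322 and 1298 against 1286 and 1339 CPM.

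Col15a1, a basement membrane collagen, had 104 and 52.4 CPM for WT-CD, 88.8 and 78.4 for R403Q-CD, and 437 and 209 for R403Q-EMPA (2.06 ± 0.34, edgeR adjusted p = 0.0152). The level in R403Q-EMPA replicate 1 was more than that in replicate 2, and without replicate 1 the log2 fold change was 1.32 (edgeR adjusted p = 0.499). Col15a1 was the 1 gene called of 16 basement membrane genes tested, and it is also on the fibroblast list. Lamb1, a laminin chain, had 138 and 108 against 358 and 213 CPM without being called, and Col4a1, the main collagen of basement membranes, 730 and 620 against 1143 and 1101. Nppa had 88.8 and 71.5 CPM for R403Q-CD against 619 and 184 with empagliflozin (2.47 ± 0.40, edgeR adjusted p = 0.0152). The log2 fold change of Nppa was 1.20 without R403Q-EMPA replicate 1 (edgeR adjusted p = 0.757). That of Hspb1 was 1.93, no lower than with that library, at an edgeR adjusted p of 0.051.

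Without that library 12 genes were called, 8 of them among the 11. These 8 were Ahsa2, Dnaja1, Hsp90aa1, Hsp90ab1, Hspa4l, Hspa8, Hsph1 and P4ha1. Members with a marker besides Cxcl12 gave 7 called genes, all 7 among the 11. Without R403Q-CD replicate 2 it was 15 called, 6 of them among the 11. The count rose to 28 without WT-CD replicate 1, 26 without WT-CD replicate 2, 24 without R403Q-CD replicate 1 and 21 without R403Q-EMPA replicate 2. Hsph1, Hspa4l and P4ha1 were called in each of 15 alternatives.

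**Figure D3:**
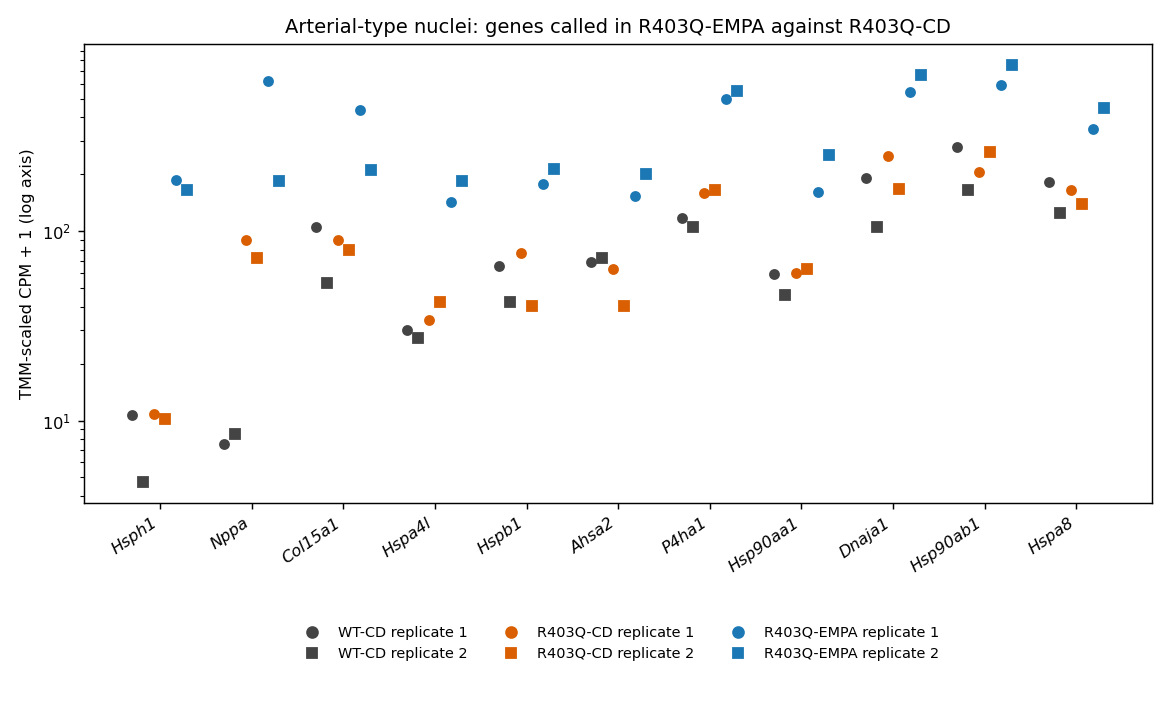
TMM-scaled CPM plus 1 (log axis) in the arterial-type nuclei of each library for the 11 genes called in R403Q-EMPA against R403Q-CD. Circles are replicate 1 and squares replicate 2 of each group. The 2 R403Q-EMPA libraries lie above the other 4 in every gene, and for Nppa and Col15a1 they lie apart from each other.

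The same genes were read in the other nuclei of each library, in CPM of summed UMIs. Hsph1 had 14.3, 4.91, 12.2, 8.53, 156 and 154 CPM in Car4 nuclei in the order WT-CD, R403Q-CD, R403Q-EMPA, and 21.2, 17.8, 29.3, 24.2, 122 and 105 in nuclei outside the endothelial gate. P4ha1 had 120 and 113, 136 and 114, and 480 and 542 CPM in Car4 nuclei, and 149 and 124, 141 and 134, and 299 and 303 outside the gate. For Hsph1 and P4ha1 the treated libraries were thus above the untreated ones in these nuclei too. For Nppa the nuclei outside the gate, cardiomyocytes among them, had 30.0 and 17.5, 90.0 and 121, and 927 and 224 CPM, while arterial-type nuclei had 6.23 and 6.83, 81.5 and 65.9, and 577 and 172. The order of the libraries by group was shared, and the part of free cardiomyocyte RNA in the Nppa values was not tested. Col15a1 outside the gate had 233 and 213, 186 and 135, and 202 and 184 CPM, with no excess in R403Q-EMPA replicate 1.

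Whether the response differed between arterial-type and Car4 nuclei was tested as an interaction in one edgeR fit over 11540 genes with the library as a block. None of the 11 genes was called. The difference in log2 fold change was 0.29 ± 0.58 for Hsph1 and -0.33 for P4ha1 (SE for the first, edgeR adjusted p = 1 for both). Col15a1 had 0.78. In R403Q-EMPA against R403Q-CD the fit called 1 gene (0.00867%), and DESeq2 called 0 (438 and 79 at an unadjusted p under 0.05). It called 5 genes (0.0433%) for R403Q-CD against WT-CD and 6 (0.052%) for R403Q-EMPA against WT-CD. The counts without R403Q-EMPA replicate 1 were 4, 14 and 19 in the same order, of which 0, 5 and 3 were among those called with it.

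**Figure D4:**
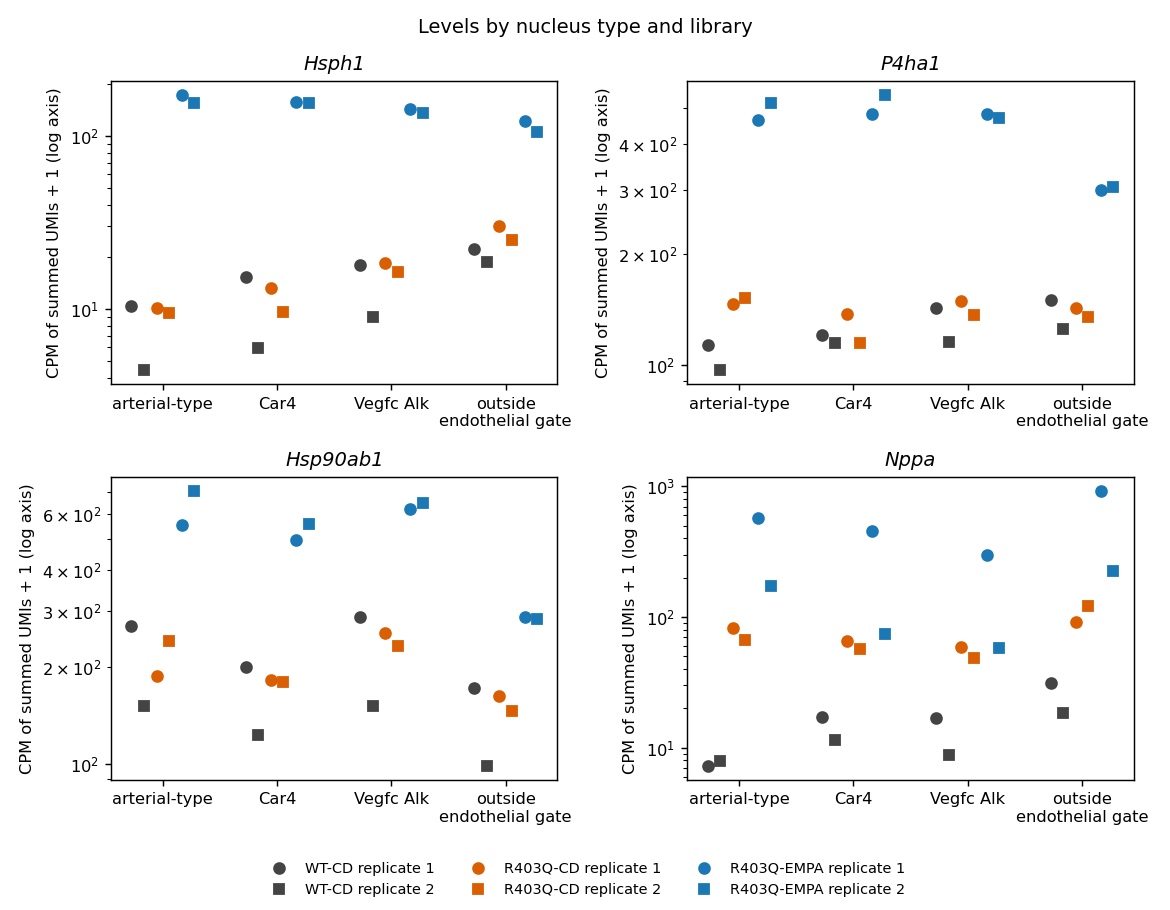
CPM of summed UMIs plus 1 (log axis) of Hsph1, P4ha1, Hsp90ab1 and Nppa in arterial-type, Car4 and Vegfc Alk nuclei and in nuclei outside the endothelial gate, with 1 point for each of 6 libraries. R403Q-EMPA lies above the other groups in the 4 kinds of nuclei for Hsph1, P4ha1 and Hsp90ab1. For Nppa, R403Q-EMPA replicate 1 is the highest in each.

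The arterial genes showed no called change with empagliflozin. Of 17 tested, 0 were called in R403Q-EMPA against R403Q-CD, with a median log2 fold change of -0.11. Alpl, alkaline phosphatase, had 95.4 and 85.3 against 42.6 and 48.5 CPM, and Dll4 had 82.2 and 99.1 against 60.3 and 48.5, the 2 with an unadjusted p under 0.05. Sema3g had 92.1 and 99.1 against 90.0 and 116 CPM. Sox17, which chose the nuclei, had 303 and 274 against 336 and 408 CPM. Of 13 glycolysis genes tested, 0 were called and 10 had a positive fold change, with Ldha, lactate dehydrogenase, at 36.2 and 50.7 against 84.2 and 97.0 CPM. Of 11 clock genes 0 were called, and Per3 had 178 and 182 against 116 and 97.0 CPM.

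R403Q-EMPA against WT-CD, which shares the treated libraries with the comparison above, called 35 genes (0.558%), 19 higher (0.303%) and 16 lower (0.255%), and 511 genes had an unadjusted p under 0.05 (8.15%, of which 4.15% higher and 4% lower). Without R403Q-EMPA replicate 1 it called 14, 11 of them among the 35, while it called 74 without WT-CD replicate 2, 77 without R403Q-CD replicate 1 and 73 without R403Q-CD replicate 2. Of 17 tested genes of the chaperone list, 8 were called higher, the 7 named above and Stip1, and the median log2 fold change of the 17 was 1.33. Stip1 had 16.2 and 15.0 CPM in WT-CD against 93.6 and 131 in R403Q-EMPA (2.75 ± 0.46, edgeR adjusted p = 0.00770). Nppa had 6.48 and 7.48 against 619 and 184 CPM (5.94 ± 0.64, edgeR adjusted p = 0.000111). Nppa rested on 2 and 2 UMIs in WT-CD, and its log2 fold change was 4.65 without R403Q-EMPA replicate 1.

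The other genes called higher included an enzyme of the renin-angiotensin system, and the groups did not overlap in those named next, as in 17.4% of all genes tested. Ace, angiotensin-converting enzyme, had 32.4 and 37.4 CPM for WT-CD, 49.3 and 78.4 for R403Q-CD, and 121 and 146 for R403Q-EMPA (1.89 ± 0.36 against WT-CD, edgeR adjusted p = 0.0230). It was the 1 gene called of 14 vasoactive genes tested, and without R403Q-EMPA replicate 1 its log2 fold change was 2.05 (edgeR adjusted p = 0.0780). Edn1 had 45.4 and 48.6 against 102 and 116 CPM without being called. Acss1, a mitochondrial acetyl-CoA synthetase, had 48.6 and 18.7 against 135 and 141 CPM (1.98 ± 0.37), P3h2, a collagen prolyl hydroxylase, 22.7 and 26.2 against 149 and 67.9 (2.31 ± 0.44), and Exoc3l2, of an exocyst complex, 16.2 and 22.4 against 108 and 48.5 (2.20 ± 0.48). None of these 3 was called without R403Q-EMPA replicate 1. The log2 fold change of Acss1 was then 2.01 (edgeR adjusted p = 0.108), while P3h2 had 1.46 and Exoc3l2 1.32 (edgeR adjusted p = 0.762 and 0.872). P4ha1 and Col15a1 were called here too, at 2.23 and 2.12. The remaining genes called higher, none on the chaperone list, were Rps6ka3, Ncoa7, Sgk3 and St13, with log2 fold changes of 1.07 to 1.48. Without R403Q-EMPA replicate 1 the values were 2.31 for P4ha1, 1.39 for Col15a1, 1.06 for Rps6ka3, 0.99 for Ncoa7, 1.09 for Sgk3 and 1.39 for St13.

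The genes lower than in WT-CD differed in kind, with an adhesion molecule and an ion channel among them. Vcam1 had 81.0 and 105 CPM for WT-CD, 16.4 and 23.1 for R403Q-CD, and 16.1 and 14.6 for R403Q-EMPA (-2.53 ± 0.42 against WT-CD, edgeR adjusted p = 0.00770). Both R403Q groups lay below both WT-CD libraries, but few nuclei carried the gene. In WT-CD replicate 1, 10 nuclei had a Vcam1 UMI and 13 of the 25 UMIs came from 1 of them, and in WT-CD replicate 2, 3 nuclei had one and 18 of the 28 UMIs came from 1. The share of nuclei with a Vcam1 UMI was 7.69% and 2.97% for WT-CD, 3.39% and 4.35% for R403Q-CD, and 4.08% and 2.02% for R403Q-EMPA, so the shares of WT-CD and both R403Q groups overlapped. Kcnt2, a sodium-activated potassium channel, had 146 and 153, 32.9 and 80.7, and 34.3 and 38.8 CPM in the 3 groups (-2.08 ± 0.37, edgeR adjusted p = 0.0132), with 29 of its 41 UMIs in WT-CD replicate 2 from 1 nucleus.

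Samd5 had 165 and 86.0, 39.5 and 69.2, and 20.3 and 9.70 CPM in the 3 groups (-2.77 ± 0.43, edgeR adjusted p = 0.00559). Sntb1, a syntrophin, had 81.0 and 89.7, 32.9 and 39.2, and 12.0 and 9.70 (-2.85 ± 0.43). Cdh23, a cadherin, had 146 and 135, 69.0 and 115, and 32.8 and 53.4 (-1.91 ± 0.35). Treated libraries lay below WT-CD in all 3, as in 18.2% of all genes tested, and R403Q-CD lay between. Tenm3, Eda and 2310002F09Rik had log2 fold changes of -2.55, -1.96 and -2.49. Hmcn2 had 14 and 13 UMIs in WT-CD and 5 and 0 in R403Q-EMPA, a ratio of 0.050 (95% counting interval 0.015 to 0.131). Abca8a, a transporter on the fibroblast list, had 334 and 191 CPM in WT-CD and 50.4 and 107 in R403Q-EMPA (-2.04 ± 0.42), with 29 of its 51 UMIs in WT-CD replicate 2 from 1 nucleus. Ddr2, a collagen receptor of fibroblasts, had 58.4 and 44.9 against 7.80 and 4.85 (-2.79 ± 0.60). The fibroblast list summed to 1770 CPM in WT-CD replicate 1, and its part in the lower genes was not tested. Without that library the log2 fold changes were -2.60 for Ddr2, -2.22 for Samd5, -1.61 for Abca8a and -1.55 for Eda, and none of these 4 was called (edgeR adjusted p = 0.322, 0.0555, 0.168 and 0.159). Hmcn2 and 2310002F09Rik were not called there either, at -4.34 and -2.62 (edgeR adjusted p = 0.363 and 0.0735). Car8, Ntf3, Stxbp6 and Phactr1 were also called lower, with log2 fold changes of -1.68 to -1.09. Ntf3 and Stxbp6 lost the call without WT-CD replicate 1, at -1.39 and -0.93.

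**Figure D5:**
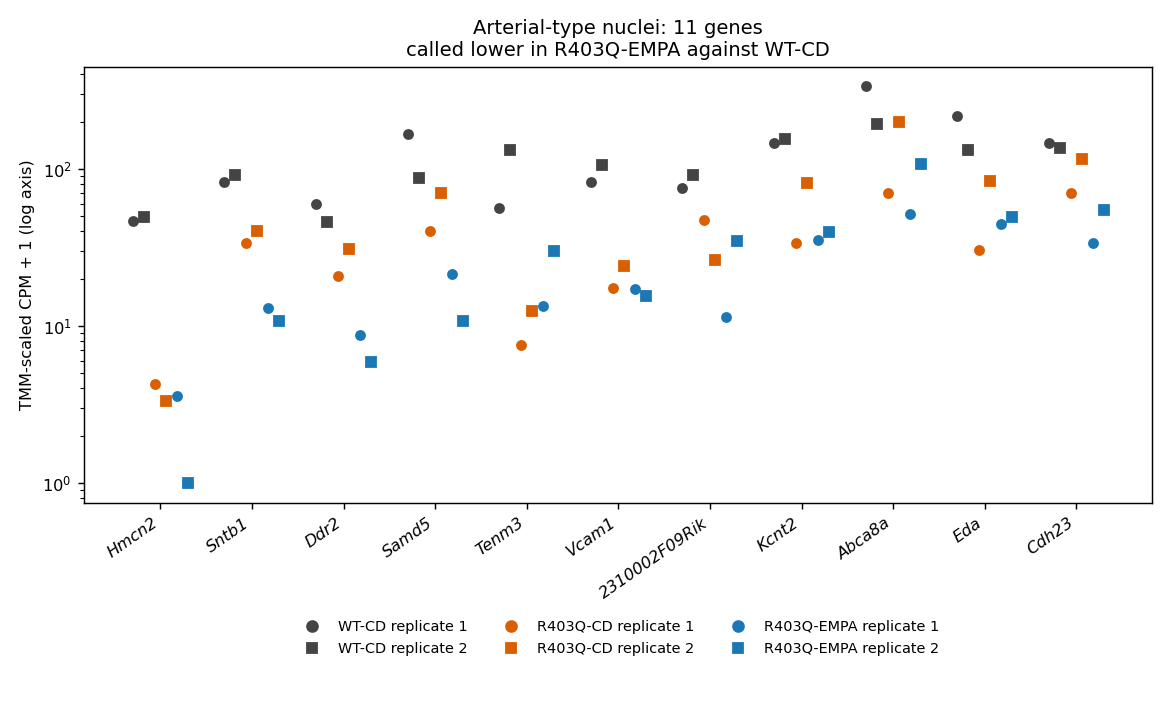
TMM-scaled CPM plus 1 (log axis) in the arterial-type nuclei of each library for 11 of the 16 genes called lower in R403Q-EMPA against WT-CD. Circles are replicate 1 and squares replicate 2. R403Q-EMPA lies below both WT-CD libraries in every gene, and both R403Q-CD libraries lie below both WT-CD libraries in every gene except Abca8a.

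Samd5 alone of the 16 lower genes was called without R403Q-EMPA replicate 1, at a log2 fold change of -3.66 (edgeR adjusted p = 0.0282). In members with a marker besides Cxcl12 its value was -1.75 and it was not called (edgeR adjusted p = 0.776). Calls were also lost by genes whose fold change was no nearer to 0 than with that library, with -3.32 for Ddr2, -3.09 for Sntb1, -2.64 for Vcam1, -2.03 for Ntf3 and -1.74 for Stxbp6. Kcnt2 had -1.94, Eda -1.85 and Car8 -1.60, close to their values with it. Tenm3 had -1.65, Cdh23 -1.39, Abca8a -1.31 and 2310002F09Rik -1.26, all nearer to 0 than with it. Samd5 was also lower in the treated libraries in Car4 nuclei, where it had 148 and 155 CPM in WT-CD and 61.3 and 77.9 in R403Q-EMPA. Vcam1 had 33.0 and 14.1 against 23.9 and 7.28 CPM in Car4 nuclei, where the groups overlapped. The interaction with nucleus type had an edgeR adjusted p of 0.0572 for Vcam1 and 0.147 for Samd5.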

How the data were processed

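Raw UMI counts of single nuclei were deposited by the authors for 6 libraries, made with Cell Ranger 8.0.1 on GRCm39 according to the submitters' processing notes, over 33696 genes. Nuclei with at least 500 UMIs, at least 300 genes and at most 5% mitochondrial UMIs were kept, doublets were predicted with Scrublet in scanpy 1.11.5 and not removed, and members were found by the rule given. Shares were compared by an exact permutation test over libraries. Counts were summed per library over member nuclei, filtered with filterByExpr, scaled by TMM and fitted over all 6 libraries with the quasi-likelihood test of edgeR 4.0.16 (R 4.3.3), with Benjamini-Hochberg adjustment at 0.05. DESeq2 1.42.0, other rules, filters and scalings, and each library left out in turn were the alternatives. Ratios between nucleus types used CPM plus 5, for genes of mean CPM at least 10 in arterial-type or Car4 nuclei, with no test. The members and lists were chosen with earlier results of these data known. The genes named were up to 12 called genes with the largest and 12 with the smallest fold change in each comparison whose libraries did not overlap, the 10 of smallest p where under 5 were called, up to 5 in each direction for the interaction, in the profile the rule genes and genes among the 25 largest and 15 smallest ratios, and list members. The 11 further genes called against WT-CD and the marker-besides-Cxcl12 alternative were chosen after seeing the data. Wilson intervals and ratio intervals cover counting error only. A result for 1 gene called in R403Q-EMPA against WT-CD is not reported here.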

Additional observations from a re-analysis of the deposited data

Results flagged for a closer look

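These results were picked out because the response of arterial-type nuclei differed from that of Car4 nuclei in the same libraries, by the interaction test of edgeR with the library as a block. DESeq2 called 0 genes in each of the 3 comparisons, where edgeR had 548, 438 and 501 genes and DESeq2 149, 79 and 129 at an unadjusted p under 0.05. Values are differences in log2 fold change, arterial-type minus Car4, and levels are TMM-scaled CPM.

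For R403Q-CD against WT-CD, Chrm3, the muscarinic receptor that was among the genes most enriched in arterial-type nuclei, had a difference of 2.62 ± 0.48 (SE, edgeR adjusted p = 0.00283). Its levels in arterial-type nuclei were 61.4 and 91.7 CPM (WT-CD) and 127 and 238 (R403Q-CD), against 15.7 and 8.42, and 2.61 and 6.27, in Car4 nuclei. It was called in 11 of 14 alternatives, and it had 1.92 both without WT-CD replicate 1 (edgeR adjusted p = 0.246) and without predicted doublets (edgeR adjusted p = 0.300). Pkhd1l1, a membrane protein, had a difference of 2.25 ± 0.42 (edgeR adjusted p = 0.00381), with 55.5 and 28.2 against 112 and 93.7 CPM in arterial-type and 59.2 and 45.7 against 20.8 and 32.8 in Car4 nuclei. It was called in 10 of 14 alternatives, and had 1.46 with at least 1 marker UMI, 1.85 without R403Q-CD replicate 1 and 2.02 without WT-CD replicate 2 (edgeR adjusted p = 0.547, 0.116 and 0.0844). Hbb-bs, a beta globin gene whose near-identical copy could share its reads, had -1.10 ± 0.20 (edgeR adjusted p = 0.00283), with Car4 levels of 338 and 242 against 601 and 854 CPM and arterial-type levels of 368 and 353 against 407 and 438. It was not called without WT-CD replicate 2 (-0.90, edgeR adjusted p = 0.175) or without R403Q-CD replicate 2 (-0.88, edgeR adjusted p = 0.163). Gas7 had 3.90 (edgeR adjusted p = 0.00151), and 40 of its 42 UMIs in R403Q-CD replicate 2 came from 1 nucleus. Without that library Gas7 had 2.32 (edgeR adjusted p = 0.715), and without WT-CD replicate 1 it had 2.501 (edgeR adjusted p = 0.185). Mki67 had -6.57 (edgeR adjusted p = 5.83e-05), with 15, 22, 0 and 1 UMIs in the arterial-type nuclei of the 4 libraries, from 2, 1, 0 and 1 nuclei.

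For R403Q-EMPA against R403Q-CD, Setbp1 had -2.18 (edgeR adjusted p = 0.00289), and -0.53 (edgeR adjusted p = 0.987) without R403Q-EMPA replicate 1. Single nuclei held 33 of its 54 and 32 of its 57 UMIs in the R403Q-CD libraries.

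For R403Q-EMPA against WT-CD, Msi2, an RNA-binding protein, had 0.87 ± 0.19 (edgeR adjusted p = 0.0379), with 295 and 342 CPM (WT-CD) and 505 and 530 (R403Q-EMPA) in arterial-type nuclei, and 333 and 452 against 369 and 306 in Car4 nuclei. It was called in 9 of 14 alternatives, in all of which the difference was positive. The difference without R403Q-EMPA replicate 1 was 1.08 (edgeR adjusted p = 0.0116), while the call was lost without R403Q-EMPA replicate 2 (0.77, edgeR adjusted p = 0.0595), without WT-CD replicate 2 (0.76, edgeR adjusted p = 0.532), with at least 1 marker UMI, without the mitochondrial filter and by DESeq2. Aqp1 had -0.98 ± 0.21 (edgeR adjusted p = 0.0379), with 546 and 282 against 69.7 and 306 CPM in arterial-type and 763 and 675 against 283 and 844 in Car4 nuclei. The difference was -0.65 without R403Q-EMPA replicate 1 (edgeR adjusted p = 0.572), -0.52 without WT-CD replicate 1 and -0.21 in members with a marker besides Cxcl12 (edgeR adjusted p = 1 for both). F13a1, a macrophage gene, had 2.02 (edgeR adjusted p = 0.00481). Its levels were 81.8 and 14.1 against 81.8 and 8.99 CPM in arterial-type nuclei, and 205 and 114 against 68.6 and 5.22 in Car4 nuclei. The difference thus came from lower Car4 levels. It was 1.08 without predicted doublets (edgeR adjusted p = 0.9997) and 1.62 without WT-CD replicate 2. Gas7 had 3.60 (edgeR adjusted p = 0.00230), and 75 of 168 F13a1 UMIs in R403Q-EMPA replicate 1 came from 1 nucleus. Neither was called without that library, where the difference was 2.52 for F13a1 (edgeR adjusted p = 0.92), no lower than with it, and 2.57 for Gas7 (edgeR adjusted p = 0.717). Nkain2 had 4.9995 (edgeR adjusted p = 0.000343), with 29 of 39 and 12 of 12 UMIs in the R403Q-EMPA libraries from 1 nucleus each. Mki67 had -3.89 (edgeR adjusted p = 4.30e-05), with 15, 22, 40 and 0 UMIs in the arterial-type nuclei of the 4 libraries, from 2, 1, 10 and 0 nuclei. Without R403Q-EMPA replicate 1, which left the treated group at 0 UMIs, the fitted value was -12.27 and is no measure of size.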

How the results depend on the processing

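Of 996 values of named genes under an alternative, over 68 gene and comparison pairs, 773 kept their direction and side of the threshold, 197 lost the threshold, 26 gained it and 0 reversed. Of 45 share values, 36 kept their direction and 9 reversed. The share in R403Q-CD minus that in WT-CD was -0.024 points with at least 1 marker UMI, -0.26 without the mitochondrial filter, -0.093 after thinning, and -1.38 to 1.61 with single libraries left out. Thinned, with single libraries left out, it was -1.67 to 1.49, the difference between R403Q-EMPA and R403Q-CD was -0.036 to 10.1, and that between R403Q-EMPA and WT-CD was -0.13 to 10.04. The causes were not tested.

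Called genes in R403Q-CD against WT-CD were 1 with a marker besides Cxcl12, 18 without a filter on low counts and 0 to 22 with single libraries left out. In R403Q-EMPA against R403Q-CD they were 7, 43 and 12 to 28. In R403Q-EMPA against WT-CD they were 13, 103 and 14 to 77, with 18 by DESeq2 and 21 from only the 2 groups compared. A library left alone in its group was assumed to vary like the others.

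For the difference in response from Car4 nuclei, R403Q-CD against WT-CD gave 11 calls with at least 3 marker UMIs, 15 with a marker besides Cxcl12, 0 by DESeq2, 12 without a filter and 4 to 16 with single libraries left out. R403Q-EMPA against R403Q-CD gave 5, 14, 0, 7 and 4 to 23, with 2 without the mitochondrial filter and 6 without predicted doublets. R403Q-EMPA against WT-CD gave 21 with a marker besides Cxcl12, 0 by DESeq2, 19 without a filter and 11 to 25 with single libraries left out. It gave 2 with at least 1 marker UMI, 12 without the mitochondrial filter and 11 without predicted doublets. No fit on only the 2 groups was run for this result. The alternative with a marker besides Cxcl12 was chosen after seeing the data. No paired analysis was possible because the labels give no replicate numbers that the groups share.

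Depth limits these results: outside R403Q-EMPA replicate 1, a library held 99 to 138 arterial-type nuclei, and in some genes most UMIs of a library came from 1 nucleus, in R403Q-EMPA replicate 1 too.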
